A study of Mus musculus with 6 samples.

Results

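Cytochrome c oxidase, complex IV of the respiratory chain, has 3 core subunits encoded in mitochondrial DNA and a larger set encoded in the nucleus. The 10 nuclear subunit genes described here are Cox4i1, Cox5a, Cox5b, Cox6a2, Cox6b1, Cox6c, Cox7a1, Cox7a2, Cox7b and Cox7c. They were taken by gene name from the 54532 genes of the deposited table, all 10 were found, and all 10 were among the 10460 genes with enough signal to test. Myocardial RNA was sequenced from hypertrophic hearts of mice, 3 samples in each of 2 groups. Controls were given AAV9-EGFP, an adeno-associated virus that expresses a fluorescent protein. The other hearts were given AAV9-anti-miR-199a TuDs, the same type of virus carrying tough decoys, transcripts built to sequester the microRNA. All mice were C57BL/6, wild type and 18 weeks old. Sex, the cause of hypertrophy, the dose of virus, the promoter that drove the decoys and whether each sample is a separate animal are not stated in the labels, so p-values measure the spread between these samples.

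Complex IV passes electrons from cytochrome c to oxygen and pumps protons across the inner mitochondrial membrane. The haem and copper centres lie within the core subunits, though not in each of them. The nuclear subunits surround the core, where they act in assembly, stability and regulation. Several nuclear subunits exist as a heart or muscle isoform and a broadly expressed isoform called the liver type, and adult heart is rich in the former.

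The agents aim at miR-199a, whose arms are shown because they define the sites searched for in the subunit transcripts (RefSeq, GRCm38.p6, 5′ to 3′, seed bases 2 to 8 in capitals).

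miR-199a-5p: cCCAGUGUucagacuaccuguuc

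miR-199a-3p: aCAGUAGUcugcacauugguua

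Each subunit gene's longest 3′ UTR in GENCODE M21 was scanned for matches of 7 bases to either seed. No subunit gene had a match to the 3p arm, against 13.7% of 9575 tested genes with a 3′ UTR. One of the 10, Cox6b1, had a match to the 5p arm, against 23.2% of those genes. The match in Cox6b1 is of the second form, so its last A is not part of the complement. It starts at base 123 of a 3′ UTR of 248 bases and reads as follows, with the form matched in capitals.

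Cox6b1 site: taaaaactCACTGGAaaagtttc

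The 3′ UTRs of the 10 genes were 100 to 627 bases long. A short 3′ UTR has fewer places for a match, and the shares of tested genes were not matched for its length. The low counts are therefore not read as a lack of sites. A seed match is a match of letters and not evidence of binding.

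The heart and liver isoforms of subunit 7a are the pair whose balance differed most between the groups, and their promoters are shown for comparison (RefSeq, GRCm38.p6, 250 bases before the start, 5′ to 3′ on the gene's strand). Capitals mark matches to CTANNNNTA, a MEF2-like motif, on either strand. The Cox7a1 stretch is chr7:30183921-30184170 on the plus strand and the Cox7a2 stretch is chr9:79759854-79760103 on the minus strand.

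Cox7a1: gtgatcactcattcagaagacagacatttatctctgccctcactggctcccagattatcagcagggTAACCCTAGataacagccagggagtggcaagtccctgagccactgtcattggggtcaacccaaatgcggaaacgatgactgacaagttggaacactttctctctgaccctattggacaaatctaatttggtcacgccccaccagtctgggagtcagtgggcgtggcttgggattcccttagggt

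Cox7a2: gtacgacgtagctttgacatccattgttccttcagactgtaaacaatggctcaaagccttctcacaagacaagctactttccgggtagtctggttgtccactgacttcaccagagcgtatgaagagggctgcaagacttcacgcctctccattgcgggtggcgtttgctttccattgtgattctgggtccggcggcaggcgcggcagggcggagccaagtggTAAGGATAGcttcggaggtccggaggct

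Each of these promoters held 1 such match in the 300 bases searched. It starts 184 bases before the start in Cox7a1 and 28 bases before it in Cox7a2. Of the 7 subunit genes in the promoter table, 4 held the MEF2-like motif (Cox5b, Cox7a1, Cox7a2 and Cox7c), against 21% of 32851 promoters. Cox6b1 held the ETS motif CCGGAAG, found in 8.86% of promoters, and Cox7c held the YY1 motif AAGATGG, found in 6.34%. The NRF1 core GCATGCGC and the ERR motif AAGGTCA, present in 2.71% and 4.72% of promoters, were in none of the 7 windows. Cox4i1, Cox6a2 and Cox6c were not in the table. Both strands were searched, and a match or its absence describes these letters alone.

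Transcripts of 8 of the 10 nuclear subunits were higher in the decoy hearts and none was lower, with Cox6c, Cox7a2, Cox7b and Cox7c at the top. The test was limma on log2 of normalised FPKM plus 0.5, with Benjamini-Hochberg adjusted p under 0.05. FPKM is a fragment count scaled to gene length and library size, here divided by a further factor per library. Log2 fold changes are TuD minus control on this scale. Across all tested genes 15% were higher and 14.3% were lower by the same rule (29.3% in either direction). The median log2 fold change of the 10 genes was 0.73, and that of all tested genes was 0.01. The groups did not overlap for 9 of the 10 genes, with every TuD library above every control, against 23.5% of tested genes, and for none of the 10 was every TuD library below every control, against 24.4%. In bulk RNA, more cells of a type and more RNA per cell cannot be told apart.

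Short transcripts as a class were higher in the TuD libraries, and the subunit transcripts are short. The longest protein-coding transcripts of the 10 genes span 485 to 1001 bases. Of 528 tested genes in that range, 302 were higher (57.2%), 2 were lower (0.379%), and their median log2 fold change was 0.56. Over all tested genes the median was 0.49 in the 1046 with the shortest gene length and -0.17 in the 1046 with the longest. With the trend on coding transcript length removed from each library, a correction chosen after the data were seen, 4 subunits were higher (Cox6c, Cox7a2, Cox7b and Cox7c), Cox5a was lower, and the median of the 10 was 0.20. The planned correction removed the trend on the deposited gene length instead. It left 6 subunits higher (these 4 with Cox4i1 and Cox5b) and none lower, with a median of 0.47. What produces the length trend was not tested, and it cannot be told apart from the treatment.

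**Figure D1:**
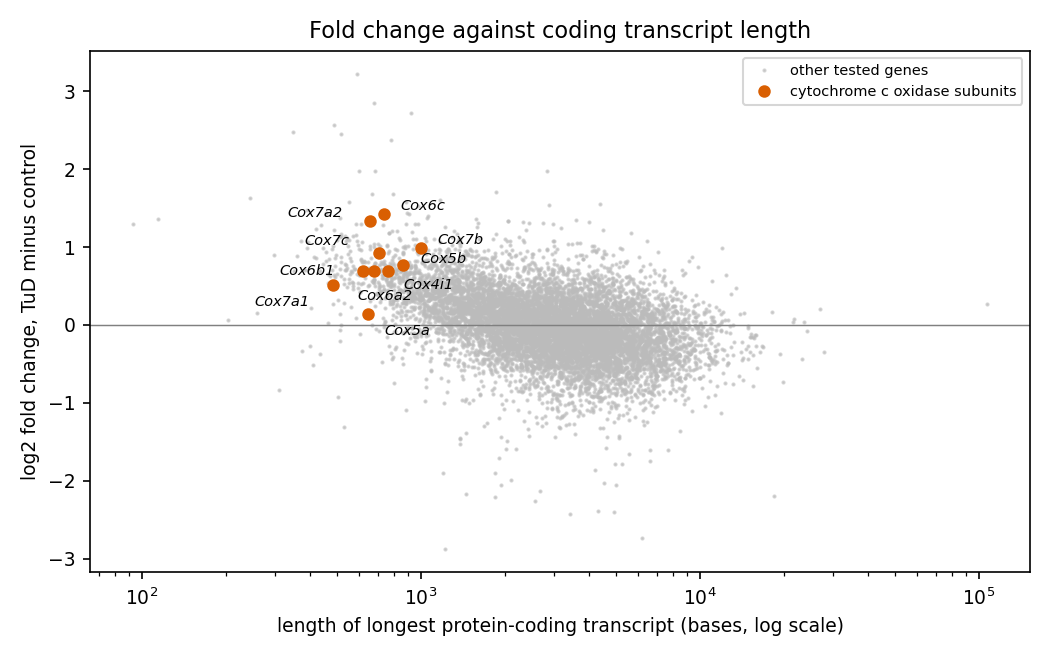
Log2 fold change (TuD minus control, vertical axis) against the length of the longest protein-coding transcript in bases (log scale, horizontal axis) for tested genes with such a transcript; orange points are the 10 cytochrome c oxidase subunits. The subunits lie among the short transcripts, whose fold changes are mostly above 0, and Cox6c and Cox7a2 stand highest among the 10.

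Cox4i1 encodes subunit 4, the largest nuclear subunit, through which ATP inhibits the enzyme (ENSMUSG00000031818, mm10 chromosome 8, 120668222 to 120674207, plus strand). It measured 1616, 1874 and 1919 normalised FPKM in controls 1 to 3 and 2698, 3401 and 2707 in TuD 1 to 3. All TuD values lay above all control values. The log2 fold change was 0.70 ± 0.16 (SE, n = 3 per group, limma adjusted p = 0.0139). The call ended without control replicate 1 (0.62, adjusted p = 0.0503).

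Cox5a and Cox5b encode matrix-side subunits, of which 5b binds zinc. Cox5a (ENSMUSG00000000088, chromosome 9, 57521274 to 57532426, plus strand) measured 297, 319.7 and 325 normalised FPKM in the controls and 327, 356 and 351 in the TuD libraries. The ranges were separated by a narrow margin, and the log2 fold change of 0.14 ± 0.11 did not pass (SE, limma adjusted p = 0.355). Its estimate turned negative when expressed as TPM (-0.25, adjusted p = 0.178), under quantile normalization (-0.22, 0.0943) and with coding transcript length removed (-0.51, 0.0117). Cox5b (ENSMUSG00000061518, chromosome 1, 36691449 to 36693681, plus strand) measured 546, 562 and 622 in the controls and 992, 1171 and 811 in the TuD libraries. TuD replicate 3 was the lowest of its group and still above the controls. The Cox5b log2 fold change was 0.77 ± 0.16 (SE, limma adjusted p = 0.0102), well above that of its neighbour in the complex.

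Cox6a2 is the heart and muscle isoform of subunit 6a, which lies at the interface of the dimer (ENSMUSG00000030785, chromosome 7, 128205435 to 128206387, minus strand). It was the most abundant of the 10 per gene length, with 3049, 3039 and 3521 normalised FPKM in the controls and 4992, 5676 and 4891 in the TuD libraries. The groups were well apart. The log2 fold change was 0.70 ± 0.15 (SE, limma adjusted p = 0.0124), and without control replicate 2 it was 0.66 and missed the threshold (adjusted p = 0.0631). Cox6b1 encodes subunit 6b, on the side of the intermembrane space where cytochrome c docks (ENSMUSG00000036751, chromosome 7, 30616861 to 30626151, minus strand). It measured 904, 959 and 1028 in the controls and 1532, 1835 and 1356 in the TuD libraries. Again no TuD value fell into the control range, and the log2 fold change was 0.70 ± 0.15 (SE, limma adjusted p = 0.0117). Cox4i1, Cox5b, Cox6a2 and Cox6b1 thus had similar estimates, and all of them lost the call with coding transcript length removed (log2 fold changes 0.14, 0.27, 0.08 and 0.03, limma adjusted p = 0.279, 0.0748, 0.601 and 0.812). With gene length removed, Cox4i1 and Cox5b kept the call (0.43 and 0.51, limma adjusted p = 0.0258 and 0.0208). Cox6a2 and Cox6b1 lost it there too (0.22 and 0.23, limma adjusted p = 0.158 and 0.119).

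Cox6c, a small subunit with a single membrane helix, had the highest log2 fold change of the 10 (ENSMUSG00000014313, chromosome 15, 35925886 to 35938246, minus strand). It measured 133, 113 and 139 normalised FPKM in the controls and 294, 397 and 342 in the TuD libraries. The lowest TuD value was far above the highest control value. The log2 fold change was 1.42 ± 0.14 (SE, limma adjusted p = 0.00194), a ratio of means of 2.69. With coding transcript length removed it was 0.84 (adjusted p = 0.00391).

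Cox7b and Cox7c are also small single-helix subunits. The X-linked Cox7b (ENSMUSG00000031231, 106015700 to 106022450, plus strand) measured 390.0, 338 and 411 normalised FPKM in the controls and 706, 769.9 and 770.4 in the TuD libraries. The TuD values lay close together, and the log2 fold change was 0.98 ± 0.12 (SE, limma adjusted p = 0.00249). Cox7c (ENSMUSG00000017778, chromosome 13, 86044816 to 86046904, minus strand) measured 613, 594 and 667 in the controls and 1065, 1298 and 1192 in the TuD libraries. The groups again did not overlap. Its log2 fold change was 0.92 ± 0.13 (SE, limma adjusted p = 0.00353). With length and GC content removed together it was 0.13 for Cox7c (adjusted p = 0.336), whereas Cox7b stayed higher (0.39, adjusted p = 0.0256).

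**Figure D2:**
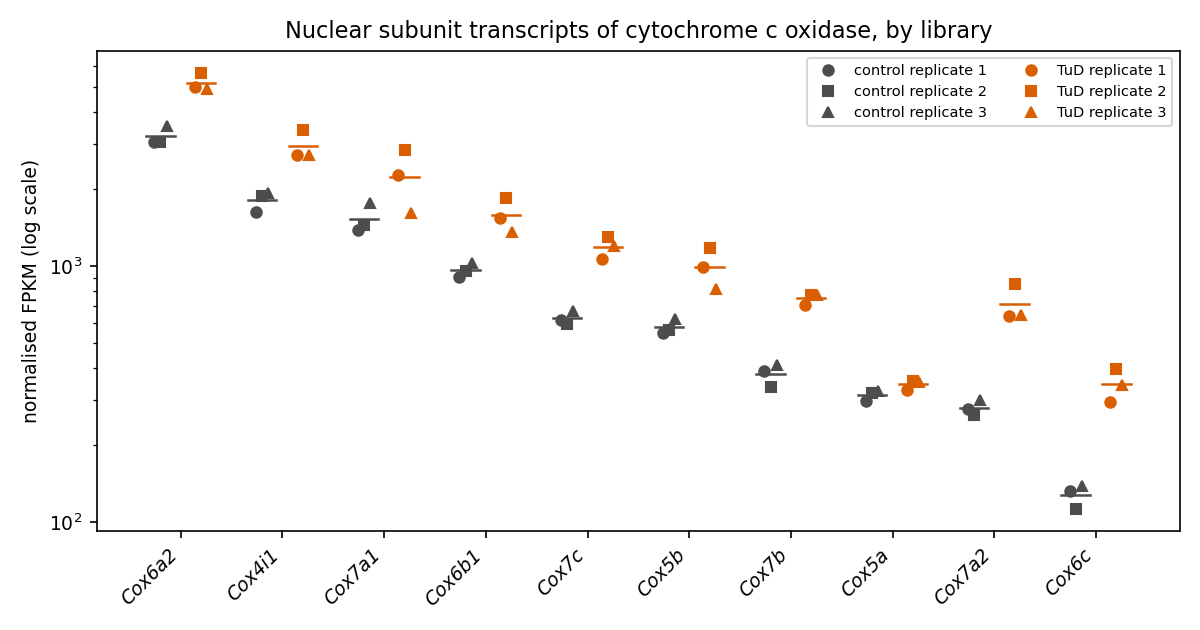
Normalised FPKM (log scale, vertical axis) of the 10 nuclear subunit transcripts in each library; grey symbols are controls, orange symbols TuD libraries, symbol shape gives the replicate and bars are group means. Every TuD value lies above the controls except for Cox7a1, whose TuD replicate 3 (1609) lies within the control range (1384 to 1754).

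Subunit 7a is the one for which both the heart isoform, Cox7a1, and the liver isoform, Cox7a2, are among the 10. The liver isoform rose and the heart isoform did not pass the test. Cox7a1 (ENSMUSG00000074218, chromosome 7, 30184144 to 30186078, plus strand) measured 1384, 1439 and 1754 normalised FPKM in the controls and 2253, 2823 and 1609 in the TuD libraries. TuD replicates 1 and 2 were above the controls, and TuD replicate 3 was inside their range. The log2 fold change was 0.52 ± 0.22 (SE, limma adjusted p = 0.105), and it passed without TuD replicate 3 (0.73, adjusted p = 0.0171). The estimate was 0.13 as TPM, 0.023 under quantile normalization and -0.27 with coding transcript length removed, none of which passed. Cox7a2 (ENSMUSG00000032330, chromosome 9, 79755361 to 79759878, minus strand) measured 276, 262 and 301 in the controls and 639, 852 and 643 in the TuD libraries. All 3 TuD values were far above the controls, TuD replicate 3 included. Its log2 fold change was 1.33 ± 0.14 (SE, limma adjusted p = 0.00197), a ratio of means of 2.54.

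Within each library the ratio of Cox7a1 to Cox7a2 removes any factor common to the library. It was 4.999, 5.48 and 5.83 in the controls and 3.53, 3.31 and 2.499 in the TuD libraries. The heart isoform stayed the more abundant in every library per gene length, but every TuD ratio was below every control ratio. The difference was -0.82 on the log2 scale, and the exact two-sided permutation p was 0.1, which is the smallest that 3 against 3 samples allow. The difference ranged from -0.91 to -0.67 when any 1 library was left out. It was -0.97 with coding transcript length removed, so the direction did not depend on that correction. Neither gene shared any stretch of 50 bases with transcripts of another gene.

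The other isoform pairs moved differently. The ratio of Cox6a2 to its liver isoform Cox6a1 was 12.8, 12.2 and 15.8 in the controls and 15.02, 13.0 and 19.0 in the TuD libraries. These ranges overlap, with a log2 difference of 0.20 (exact two-sided permutation p = 0.4). The ratio of Cox8b to Cox8a, the heart and liver types of subunit 8, was 5.94, 6.55 and 6.96 in the controls and 7.95, 8.39 and 8.23 in the TuD libraries. Here the TuD ratios were all higher, by 0.34 on the log2 scale (exact two-sided permutation p = 0.1), opposite in direction to the subunit 7a pair. With coding transcript length removed the Cox8b to Cox8a difference was 0.13 (exact two-sided permutation p = 0.2). Whether the differences of the 3 pairs differ from each other was not tested. With the nuclear to mitochondrial ratio described further on, 4 ratios were compared, and the Benjamini-Hochberg adjusted values of the exact p were 0.2, 0.533 and 0.2 for subunits 7a, 6a and 8.

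**Figure D3:**
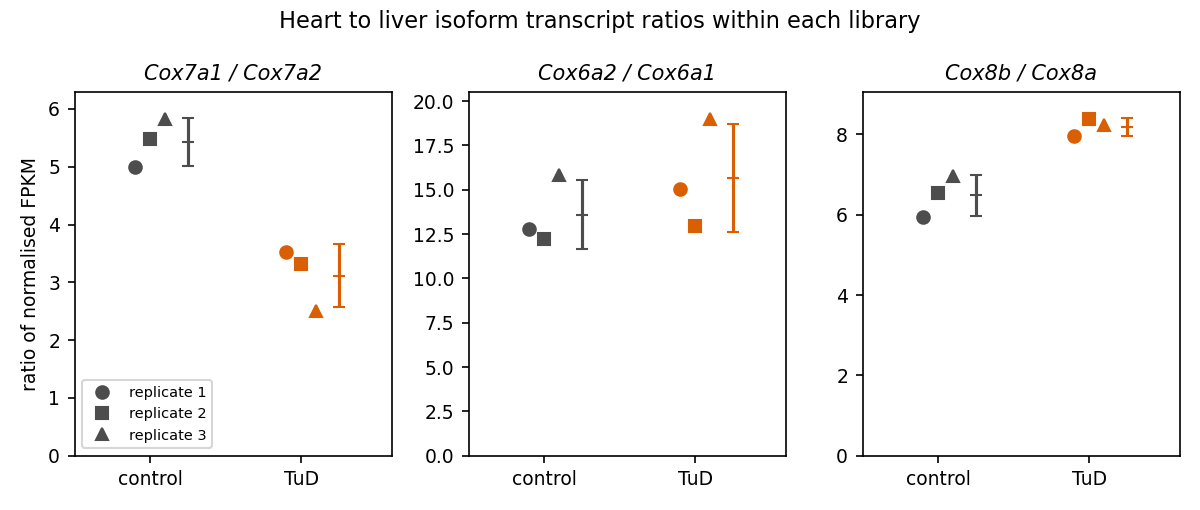
Ratio of heart to liver isoform in normalised FPKM (vertical axes, from 0) for subunits 7a, 6a and 8 in each control (grey) and TuD (orange) library, with the mean and SD beside the points. The Cox7a1 to Cox7a2 ratio is lower in all 3 TuD libraries (2.499 to 3.53 against 4.999 to 5.83), that of Cox6a2 to Cox6a1 overlaps, and that of Cox8b to Cox8a is higher (7.95 to 8.39 against 5.94 to 6.96).

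The libraries of a group kept a common order over most subunits. Control replicate 3 was the highest control for all 10 genes. TuD replicate 2 was the highest TuD library for 9 genes, the exception being Cox7b. TuD replicate 3 was the lowest of its group for Cox5b, Cox6a2, Cox6b1 and Cox7a1, and TuD replicate 1 was the lowest for the other 6. The SD of the TuD values came to 27.3% of the mean for Cox7a1, against 4.48% for Cox5a and 4.92% for Cox7b, the lowest of the 10. The 5 tested genes whose log2 values followed the mean of the 10 most closely over the 6 libraries were Ndufb1-ps, Ndufa13, Ndufs4, Commd4 and Ndufb9. Their Pearson correlations were 0.9986 to 0.9996 over 6 libraries that share the same difference between groups. Of these, Ndufa13, Ndufs4 and Ndufb9 encode subunits of complex I.

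In the controls the order of levels per gene length was Cox6a2, Cox4i1, Cox7a1, Cox6b1, Cox7c, Cox5b, Cox7b, Cox5a, Cox7a2 and Cox6c. The neighbours Cox4i1 and Cox7a1, Cox7c and Cox5b, and Cox5a and Cox7a2 overlapped between libraries, and the other neighbours did not. This order depends on the length used, because the deposited gene length of Cox6c is 3567 bases and its longest coding transcript is 738 bases. Per coding transcript length, Cox4i1 came first with 3653 ± 331 FPKM (SD, n = 3), overlapping Cox6a2, and Cox7a2 came last with 401 ± 27.6. Cox6c was then eighth of the 10. The fold change of a single gene is the same with either length, the corrections above aside.

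Of all recovered reads, 1.05 ± 0.0764% fell on these 10 genes in control hearts and 1.62 ± 0.177% in decoy hearts (SD, n = 3). Their summed level was 9798 ± 783 normalised FPKM against 16250 ± 2059, and no TuD sum fell into the control range of 9208 to 10685. Cox6a2 alone made up 32.7 ± 0.609% of the summed control level and 32.0 ± 1.40% of the TuD level. The share of Cox5a was 3.21 ± 0.165% in the controls and 2.14 ± 0.239% in the TuD libraries. That of Cox6c was 1.31 ± 0.128% and 2.12 ± 0.218%.

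Some subunit transcripts share sequence with other genes, and reads from the shared stretches may be split or dropped in counting. The share of 50-base windows of the longest coding transcript that also occur in another gene was 32.0% for Cox5a, 27.9% for Cox7c, 25.9% for Cox5b, 14.7% for Cox4i1, 13.9% for Cox6c, 3.33% for Cox6a2 and 0.630% for Cox7b. It was 0 for Cox6b1, Cox7a1 and Cox7a2. Windows were matched on either strand. For Cox4i1 and Cox6a2 the other gene was an overlapping gene on the opposite strand (Emc8 and Itgad) and not a copy. Gm26631, among the genes sharing windows with Cox5a, also overlaps it on the opposite strand. The copies with appreciable signal rose along with their parents. Gm12338, a copy of Cox7c, went from 229 ± 19.7 to 591 ± 91.0 normalised FPKM (SD, n = 3, limma adjusted p = 0.00194), and Gm11273, a copy of Cox5b, from 240.4 ± 24.2 to 483 ± 90.2 (adjusted p = 0.00461). The processed pseudogene Cox6c2 went from 2.40 ± 0.410 to 9.42 ± 3.12 (adjusted p = 0.00250). Values of Cox4i1, Cox5a, Cox5b, Cox6c and Cox7c are uncertain to that extent.

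The other nuclear genes of the complex were higher or did not pass. Of 10 listed, 8 were tested, 5 were higher and none was lower, with a median log2 fold change of 0.52. Among all tested genes 15% were higher and 14.3% were lower. Among those with coding transcripts of 485 to 1001 bases, 57.2% were higher and 0.379% lower, with a median of 0.56. The list is thus close to short transcripts as a class. Cox8b, the heart isoform of subunit 8, was higher by 0.88 (limma adjusted p = 0.00937), and its liver counterpart Cox8a by 0.54 (0.0245). With coding transcript length removed neither was called, and the estimates were -0.057 for Cox8b and -0.18 for Cox8a. Ndufa4, once counted in complex I and now placed in complex IV, was higher by 0.83 (adjusted p = 0.00616). Its call ended with coding transcript length removed (0.16, adjusted p = 0.188), with length and GC content removed (0.19, 0.229) and with the Y-linked covariate described further on (0.71, 0.0526). Cox4i2, the hypoxia-related isoform of subunit 4, was higher by 0.80 (adjusted p = 0.0236), at a mean of only 13.8 normalised FPKM in the controls. The Cox4i2 call was lost in 10 of 22 alternatives. Among these were coding transcript length removed (0.22, adjusted p = 0.284), gene length removed (0.35, 0.140) and TPM (0.43, 0.109). Cox7a2l was higher by 0.36 (adjusted p = 0.0430), and this call was lost in most alternatives. Without control replicate 1 the calls of Cox8a (adjusted p = 0.0648) and Cox4i2 (0.0737) ended as well, as they did without control replicate 3 (0.0735 and 0.0562) or TuD replicate 1 (0.0641 and 0.0552), and that of Cox8a without control replicate 2 (0.0846). Cox6a1 had a log2 fold change of 0.50 (adjusted p = 0.0746), Ndufa4l2 of 0.23 (0.371) and Cox6b2 of 0.08 (0.652). With coding transcript length removed all of these estimates were negative, and Cox6b2, at a control mean of 1.64 normalised FPKM, was then called lower (-0.61, adjusted p = 0.0207). The testis-type isoforms Cox7b2 and Cox8c were not tested: Cox7b2 did not exceed 0.485 normalised FPKM and Cox8c was at 0 in all libraries.

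The mitochondrially encoded core subunits varied far more between libraries of a group. The catalytic subunit mt-Co1 measured 29577, 11142 and 17344 normalised FPKM in the controls and 42776, 26345 and 22535 in the TuD libraries. The ranges overlap, and its log2 fold change of 0.72 ± 0.39 did not pass (SE, limma adjusted p = 0.190). Levels of mt-Co3 were 1174, 224 and 780.3 in the controls and 3756, 4404 and 1739 in the TuD libraries, which do not overlap, while those of mt-Co2 do. For mt-Co2 the log2 fold change was 1.98 ± 0.62 (adjusted p = 0.0449) and for mt-Co3 it was 2.38 ± 0.59 (0.0203), and both calls ended when TuD replicate 1 or 2 was left out (0.0591 to 0.122). That of mt-Co2 also ended without any 1 of the controls (0.0530 to 0.139). The whole transcript of mt-Co2 (100% of its 50-base windows) and 99.9% of that of mt-Co3 also occur in annotated nuclear copies, as do 51.1% of the windows of mt-Co1, which makes up most of the mitochondrial sum, so the values of all 3 are uncertain. The sum of the 10 nuclear transcripts over the sum of the 3 mitochondrial ones was 0.293, 0.820 and 0.571 in the controls and 0.309, 0.563 and 0.587 in the TuD libraries. These overlap almost fully, with a log2 difference of -0.14 (exact two-sided permutation p = 0.9, also after adjustment). Leaving out control replicate 2 or TuD replicate 1 turned its sign (0.19 and 0.16).

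Of 30 listed assembly factors in the table, which insert haem and copper or chaperone the subunits, 25 were tested. Of these 4 were higher and 6 were lower, with a median log2 fold change of 0.13, beside 15% higher and 14.3% lower among all tested genes. With so few genes, these counts do not set the list apart from the rest. Cox15, which makes haem A, was lower by 1.07 on the log2 scale, from 11.8 ± 0.501 to 5.36 ± 0.598 normalised FPKM (SD, n = 3, limma adjusted p = 0.00194). Taco1, the translational activator of the mitochondrial Co1 transcript, went from 34.7 ± 6.03 to 12.4 ± 2.40 (-1.45, adjusted p = 0.00227). Cmc1, a chaperone of newly made mitochondrial Co1, went from 7.73 ± 0.775 to 15.5 ± 0.747 (0.96, adjusted p = 0.00219), and Cox14, which acts at the same step, rose by 0.60 (0.0110). The assembly list has a median gene length of 2909 bases, against 1172.5 for the 10 subunits.

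Among 15 listed transcriptional regulators of respiratory genes, 2 were higher and 3 were lower, with a median log2 fold change of 0.016. These counts are close to the 15% and 14.3% of all tested genes. Mef2d, a muscle transcription factor, was lower (-0.89, limma adjusted p = 0.00249), as were the coactivators Pprc1 (-0.59, 0.0136) and Ppargc1b (-1.17, 0.0147). Chchd2, which acts in mitochondria and on transcription of Cox4i2, was higher (0.56, 0.0188). Mef2a, of the same family as Mef2d, was higher as well (0.54, adjusted p = 0.0368), and Mef2c did not pass (0.21, 0.334). The nuclear genes of other complexes were listed for comparison. For complex V, 15 of 17 were higher (median 0.64). For complex III with cytochrome c, 6 of 10 were higher (median 0.71). For complex II, 1 of 4 was higher (median 0.07). None of these genes was lower. The median gene lengths of these lists were 1972 bases for complex V, 1597 for complex III and 2744.5 for complex II. Among tested genes with coding transcripts of 485 to 1001 bases, 57.2% were higher. No length correction was applied to these counts, so a difference between complexes cannot be told apart from the length trend.

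**Figure D4:**
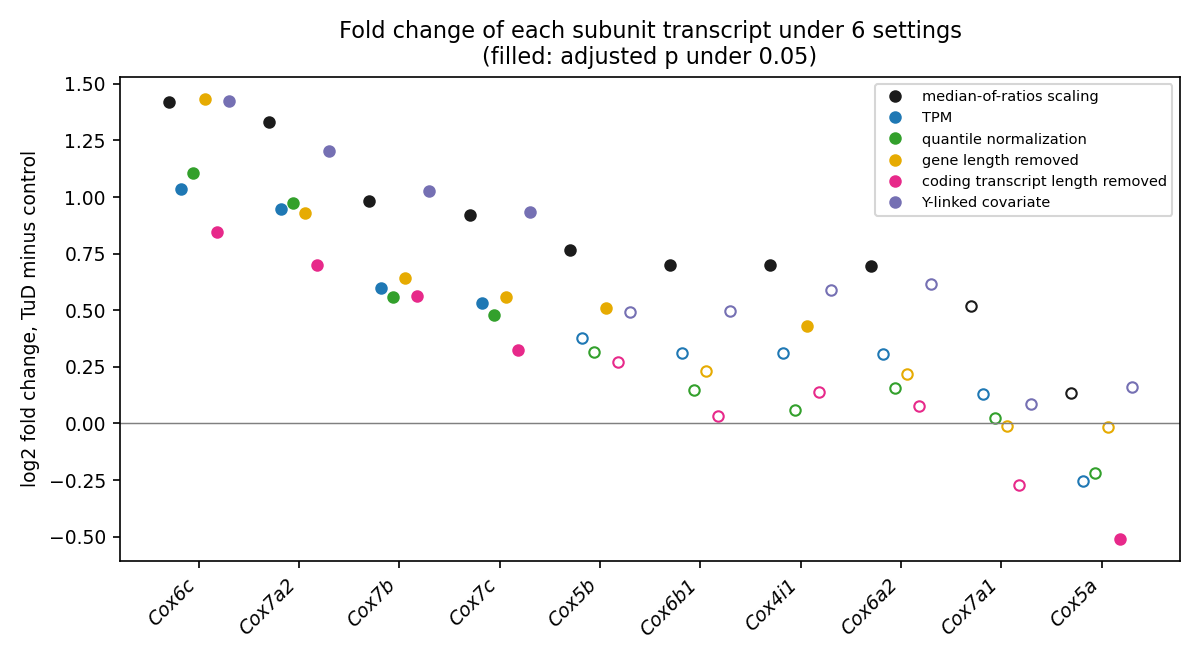
Log2 fold change (TuD minus control, vertical axis) of each subunit transcript under 6 settings: median-of-ratios scaling, TPM, quantile normalization, removal of the trend with gene length, removal of the trend with coding transcript length, and a Y-linked covariate. Filled points have a limma adjusted p under 0.05; Cox6c, Cox7a2, Cox7b and Cox7c are filled in all 6 settings shown, and Cox5a crosses below 0 under all but the first and the last.

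The libraries also differed in cell type markers, depth and Y-linked transcripts. Where these differences go with the group, they cannot be told apart from the treatment. Cardiomyocyte markers were present at a summed 35339 to 38212 normalised FPKM in the controls and 39273 to 45759 in the TuD libraries. Of the 10, 3 were higher and none was lower, beside 15% and 14.3% of all tested genes. The 3 were Tnnt2, Tnni3 and Myl2, with coding transcripts of 1200, 912 and 889 bases. Among tested genes of 485 to 1001 bases, 57.2% were higher. Of the markers not called, Mybpc3 (-0.36), Ryr2 (-0.28) and Actc1 (-0.21) had negative estimates and the others positive ones. Erythroid markers summed to 1142 to 1604 and 1374 to 3292 (2 of 5 higher). Adipocyte markers summed to 35.0 to 36.2 and 40.7 to 51.2, of which Cidea, not called, made up 34.2 to 36.0 and 36.7 to 45.03. Of the other adipocyte markers, Cfd measured 0.0571 to 0.747 in the controls and 3.32 to 9.53 in the TuD libraries (2.72, limma adjusted p = 0.00418), and Cidec, Adipoq and Retn, untested, had higher values in every TuD library than in any control, up to 1.31, 0.902 and 0.789. Ucp1 did not exceed 0.0845. Endothelial markers summed to 235 to 285 and 287 to 398, with 2 of 6 higher (Fabp4 1.02 and Egfl7 0.86). The others were not called, at 0.24 for Pecam1, -0.012 for Tie1, -0.15 for Kdr and -0.24 for Cdh5. Smooth muscle markers summed to 123.9 to 168 and 123.9 to 239, with 1 of 4 tested higher (Rgs5 1.01). Fibroblast markers summed to 139 to 149 and 135 to 187, with Lum (0.73) and Tcf21 (0.48) higher and Col1a2 lower (-0.72) among 7. Macrophage markers summed to 135 to 157 and 144 to 276, with none of 5 tested called. Skeletal muscle markers summed to at most 3.06, and none of the 7 was tested. Recovered reads numbered 15231319 to 18224978 per library. Transcripts of 4 Y-linked genes were at 8.32 to 12.5 summed FPKM in the controls and TuD replicate 3 but at 0.00711 to 0.0254 in TuD replicates 1 and 2, and with this as a covariate 4 subunits stayed higher (Cox6c, Cox7a2, Cox7b and Cox7c). That fit rests on TuD replicate 3 alone for its estimate of treatment. The labels do not state sex, and a difference in sex that goes with the Y-linked values could be separated from treatment only through that library. The part of these differences in the subunit values was otherwise not tested.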

How the data were processed

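RNA-seq of 3 control and 3 TuD heart samples was analysed, grouped by the labels alone. Total RNA was made into NEBNext Ultra libraries, per the labels' protocols. The submitters' processing notes name HISAT2 2.0.5, featureCounts 1.5.0-p3 and the build mm10; the annotation release and strand setting are not given in the sources used here. The authors deposited FPKM values with gene lengths for 54532 genes. Multiplied by gene length and divided by a unit fitted to each library, 100% of the values above 0 came out whole (tolerance 0.05 read). This gave 15231319 to 18224978 reads per library.

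Each FPKM column was scaled by a median-of-ratios factor from genes with FPKM of at least 1 in all libraries. Genes with FPKM of at least 1 in at least 3 samples (10460) were tested with limma (lmFit, eBayes with trend) on log2(value + 0.5) in two-sided tests; p was adjusted by Benjamini-Hochberg over all of them, with a threshold of 0.05. A count model was not the main test because the values are FPKM; limma-voom on the recovered reads was an alternative. Ratios were compared by exact permutation over samples. Other alternatives were 3 scalings, 2 pseudocounts, 2 filters, 2 variance models, a stricter threshold, length corrections by lowess (span 0.3), a Y-linked covariate, the replicate number as a block and leaving out each library. The pipeline was tested on simulated data. Promoters and miRNAs are from RefSeq, and transcripts and 3′ UTRs from GENCODE M21 (54409 of the 54532 identifiers matched). Named genes were all subunits, up to 4 assembly factors and 4 regulators by p, named pseudogenes of subunits, and the 5 genes most correlated with the subunit mean; Gm12338, Gm11273, Mef2a, Mef2c and the cell type markers were named after their values were seen. The subunit set and the gene lists were chosen with earlier results of these data known. Tools were R 4.3.3, limma 3.58.1, Python 3.11.15, numpy 2.4.6, pandas 2.3.3 and matplotlib 3.10.9.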

Additional observations from a re-analysis of the deposited data

How the results depend on the processing

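Of 22 alternatives, Cox6c, Cox7a2 and Cox7b were called higher in all 22 and Cox7c in 21. Cox5b kept its call in 17, Cox4i1 in 15, Cox6b1 in 14 and Cox6a2 in 13. The number of subunits called higher was 4 with TPM, where the median of all tested genes shifted to -0.36. It was also 4 with quantile normalization, the Y-linked covariate, the coding transcript length correction or a threshold of 0.01. It was 5 without a filter or with length and GC removed, and 6 with gene length alone removed. The coding transcript length correction also made 1 lower. Leaving out 1 library gave 7 to 9 higher and 0 lower. Over all tested genes, the counts higher and lower were 438 and 4202 with TPM, 651 and 529 with the Y-linked covariate, 1010 and 956 without a filter and 575 and 503 at a threshold of 0.01; 953 were higher with length and GC removed. Leaving out 1 library gave 878 to 1638 higher and 718 to 1620 lower. Assembly factors higher and lower numbered 1 and 10 with TPM, 2 and 2 with the Y-linked covariate and 1 and 2 at a threshold of 0.01; 2 were higher without a filter or with coding transcript length removed, and leaving out 1 library gave 2 to 5 higher and 2 to 5 lower. Estimates changed sign for Cox7a2l with TPM (-0.027) and, with coding transcript length removed, for Cox8a (-0.18) and Cox8b (-0.057). Among genes not called, Cox6b2 turned negative with TPM (-0.25), with gene length (-0.28), with length and GC (-0.18) and with coding transcript length removed (-0.61, then called lower), Cox6a1 with the last of these (-0.21), and Ndufa4l2 with TPM (-0.15), the Y-linked covariate (-0.15), gene length (-0.14) and coding transcript length (-0.23). Cox7a1 (-0.27) and Cox5a (-0.51, then called lower) also did with coding transcript length removed, and Cox5a with TPM (-0.25), quantile normalization (-0.22) and length and GC (-0.29). With gene length removed both were just below 0 (-0.011 for Cox7a1 and -0.016 for Cox5a). Left-out libraries gave differences of -0.91 to -0.67 for Cox7a1 to Cox7a2, 0.047 to 0.32 for Cox6a2 to Cox6a1, 0.28 to 0.39 for Cox8b to Cox8a and -0.55 to 0.19 for the nuclear to mitochondrial ratio, which turned positive without control replicate 2 (0.19) or TuD replicate 1 (0.16). The causes were not tested. limma-voom on the recovered reads called 8 subunits higher. Same-numbered samples did not deviate together (correlations 0.06, 0.09 and -0.06), so the numbers were not taken as pairs; with the replicate block 8 subunits, 1462 of all tested genes and 4 assembly factors were higher, 0, 1199 and 4 were lower, and the ratio of Cox7a1 to Cox7a2 differed by -0.82 (exact sign-flip p = 0.25, the smallest 3 pairs allow). With 3 samples a group, small differences such as that of Cox5a are not resolved.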
